A study of Mus musculus with 2 samples.

Results

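Cd47, Cd24a and the receptors that restrain phagocytosis were followed through the cell classes of ID8 mouse ovarian tumours, in 1 library of chemoresistant tumours exposed to cisplatin and 1 library of treatment-naive primary tumours. The 6 genes, out of 33696 in the count matrices, were taken by name: the ligands Cd47, Cd24a and Cd200 and the receptors Sirpa, Siglecg and Cd200r1, each of which matched 1 row. ID8 is a line from the ovarian surface epithelium of C57BL/6 mice that grows in hosts with an intact immune system. Cisplatin, the DNA-crosslinking drug, was the treatment given for the chemoresistant tumours. The cells of each library came from suspensions pooled over tumours, after collagenase digestion and lysis of red cells. The sources give no number of tumours or animals, no dose, schedule, age or sex, and no genotype, and none of these could be used here. With 1 library per group no difference below has a replicate check, and the drug, the animals and the library cannot be told apart. All intervals are 95% intervals of counting error only.

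Phagocytes decide whether to engulf a cell by weighing activating against inhibitory contacts. Cd47, an integrin-associated protein found on most cells, binds Sirpa on myeloid cells, whose cytoplasmic tail recruits the phosphatases Ptpn6 and Ptpn11. Cd24a is a heavily glycosylated protein anchored to the membrane by lipid, whose human counterpart binds SIGLEC10; Siglecg is the mouse relative of that receptor and restrains B cells. Cd200, a ligand of endothelial, dendritic and lymphoid cells, binds Cd200r1 on myeloid and T cells, which signals through Dok adaptors and Rasa1.

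The loci are given on GRCm38 (mm10) as GENCODE vM21 has them. Cd47 lies on the plus strand at chr16:49800533-49915010, Cd24a on the plus strand at chr10:43578284-43584265 and Cd200 on the minus strand at chr16:45382135-45409053. Of the receptors, Sirpa lies at chr2:129592835-129632228, Siglecg at chr7:43408204-43418358 and Cd200r1 at chr16:44765736-44794978, all on the plus strand. All 6 are annotated as protein-coding genes.

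RefSeq promoter windows (GRCm38.p6, 300 bases around a start) were matched for 3 of the 6 genes, Cd47, Siglecg and Cd200. They are shown to set Cd47, whose level differed least between classes of the 6 genes, beside Siglecg and Cd200, whose levels differed more. CG dinucleotides are in capitals, and the first listed start of each gene was used. The Cd47 window lies inside the longer GENCODE locus.
Cd47, chr16:49855404-49855703, plus strand: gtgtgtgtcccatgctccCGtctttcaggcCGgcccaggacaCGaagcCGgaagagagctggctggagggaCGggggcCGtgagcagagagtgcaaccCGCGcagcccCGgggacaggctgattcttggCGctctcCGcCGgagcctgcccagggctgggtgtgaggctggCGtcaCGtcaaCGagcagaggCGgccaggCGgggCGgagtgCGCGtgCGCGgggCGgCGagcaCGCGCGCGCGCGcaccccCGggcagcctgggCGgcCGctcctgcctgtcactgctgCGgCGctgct
Siglecg, chr7:43407989-43408288, plus strand: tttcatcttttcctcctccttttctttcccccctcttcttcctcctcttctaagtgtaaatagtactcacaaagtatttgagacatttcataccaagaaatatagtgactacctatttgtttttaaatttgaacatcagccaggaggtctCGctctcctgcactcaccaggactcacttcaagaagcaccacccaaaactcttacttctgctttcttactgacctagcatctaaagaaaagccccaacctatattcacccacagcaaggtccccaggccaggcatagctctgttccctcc
Cd200, chr16:45409004-45409303, minus strand: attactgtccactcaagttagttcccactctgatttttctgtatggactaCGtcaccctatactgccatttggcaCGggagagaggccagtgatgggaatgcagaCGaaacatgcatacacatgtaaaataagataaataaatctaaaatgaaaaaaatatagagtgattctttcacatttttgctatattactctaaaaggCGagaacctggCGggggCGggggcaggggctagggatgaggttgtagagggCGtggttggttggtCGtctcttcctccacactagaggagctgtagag
The Cd47 window held 35 CG dinucleotides at a GC content of 74.0%. Of 27025 mouse promoters, 93.3% held fewer than the Cd47 window. In Siglecg there was 1 CG, and 5.78% of promoters held fewer. Cd200 had 8, close to the median promoter at 7. A search of both strands for GAGGAA, the core of PU.1 sites, found it in the Siglecg and Cd200 windows and not in that of Cd47, and 28.3% of all promoters held it. The octamer ATTTGCAT, present in 1.75% of promoters, and the E-box CACGTG, present in 7.24%, were in none of the 3 windows.

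Barcodes were assigned to classes by counting markers, 12 per class, that had a UMI and a share of the barcode's UMIs above the mean share over both libraries. A class needed at least 3 markers and at least 2 times as many as any other class, so each class is a range of a marker count and its name means only that its markers led. None of the 6 genes was a marker; of the pathway genes listed further on, Cd22, Fcgr1, Pecam1 and Slamf7 were. The rule placed 11153 of 14908 chemoresistant and 9600 of 12824 primary barcodes that passed quality limits. Barcodes with markers of several classes, 2662 chemoresistant and 2534 primary, were set aside, which is how doublets were treated. Of the placed barcodes, 458 chemoresistant and 149 primary were at the minimum of 3 markers, and in 1059 and 797 another class was exactly at the limit that made a barcode mixed. In the 7 classes compared, the highest median number of markers of any other class was 1 or 2, in cells with a median of 5 to 10 of their own. The libraries shared 52 barcode sequences.

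At least 100 cells in both libraries were found for 7 classes. These were tumour-like or mesothelial-like cells (2243 chemoresistant, 387 primary), fibroblast-like cells (351 and 285), mononuclear phagocyte-like cells (4061 and 2700), neutrophil-like cells (727 and 1418), conventional dendritic-like cells (449 and 488), B-like cells (2843 and 2973) and T-like cells (221 and 843). Keratin and mesothelial genes such as Krt18, Krt19 and Upk3b led the first class. In it, 1721 chemoresistant and 297 primary barcodes carried at least 2 host mesothelial markers, so ID8 tumour cells and host mesothelium were not parted, and it is called tumour below only for brevity. Outside the fibroblasts, the chemoresistant cells were shallower: the median was 21899 UMIs per cell in chemoresistant against 39326 in primary tumour cells, 5381 against 11055 in phagocytes, 913 against 2431.5 in neutrophils and 1505 against 4294 in B cells. Collagen genes led the fibroblasts of both libraries, but Spp1 and Lum stood among the 10 leading genes only in the chemoresistant list and Mgp and Slit3 only in the primary list, so this class may not hold the same cells in both.

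Levels are CPM, the UMI count of a gene summed over the cells of a class and scaled to the total UMIs of that class. A 3′ assay counts transcript ends, so CPM values compare 1 gene between classes and not 1 gene with another. A member was called higher or lower when its log2 ratio of chemoresistant over primary, with 10 CPM added to both, passed 1.5-fold and its mean was at least 10 CPM. Of 42 pairs of member and class, 30 reached that mean. None was called higher, against 6.23% of all genes over the 7 classes, and 9 (30.0%) were called lower, against 10.0% of all genes. The 9 were Cd200r1 in phagocytes, neutrophils, dendritic and T cells, Sirpa in neutrophils, dendritic cells and fibroblasts, Siglecg in dendritic cells and Cd200 in fibroblasts. The log2 ratio of the median gene was itself −0.17 in fibroblasts, −0.19 in phagocytes and −0.16 in dendritic cells.

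**Figure D1:**
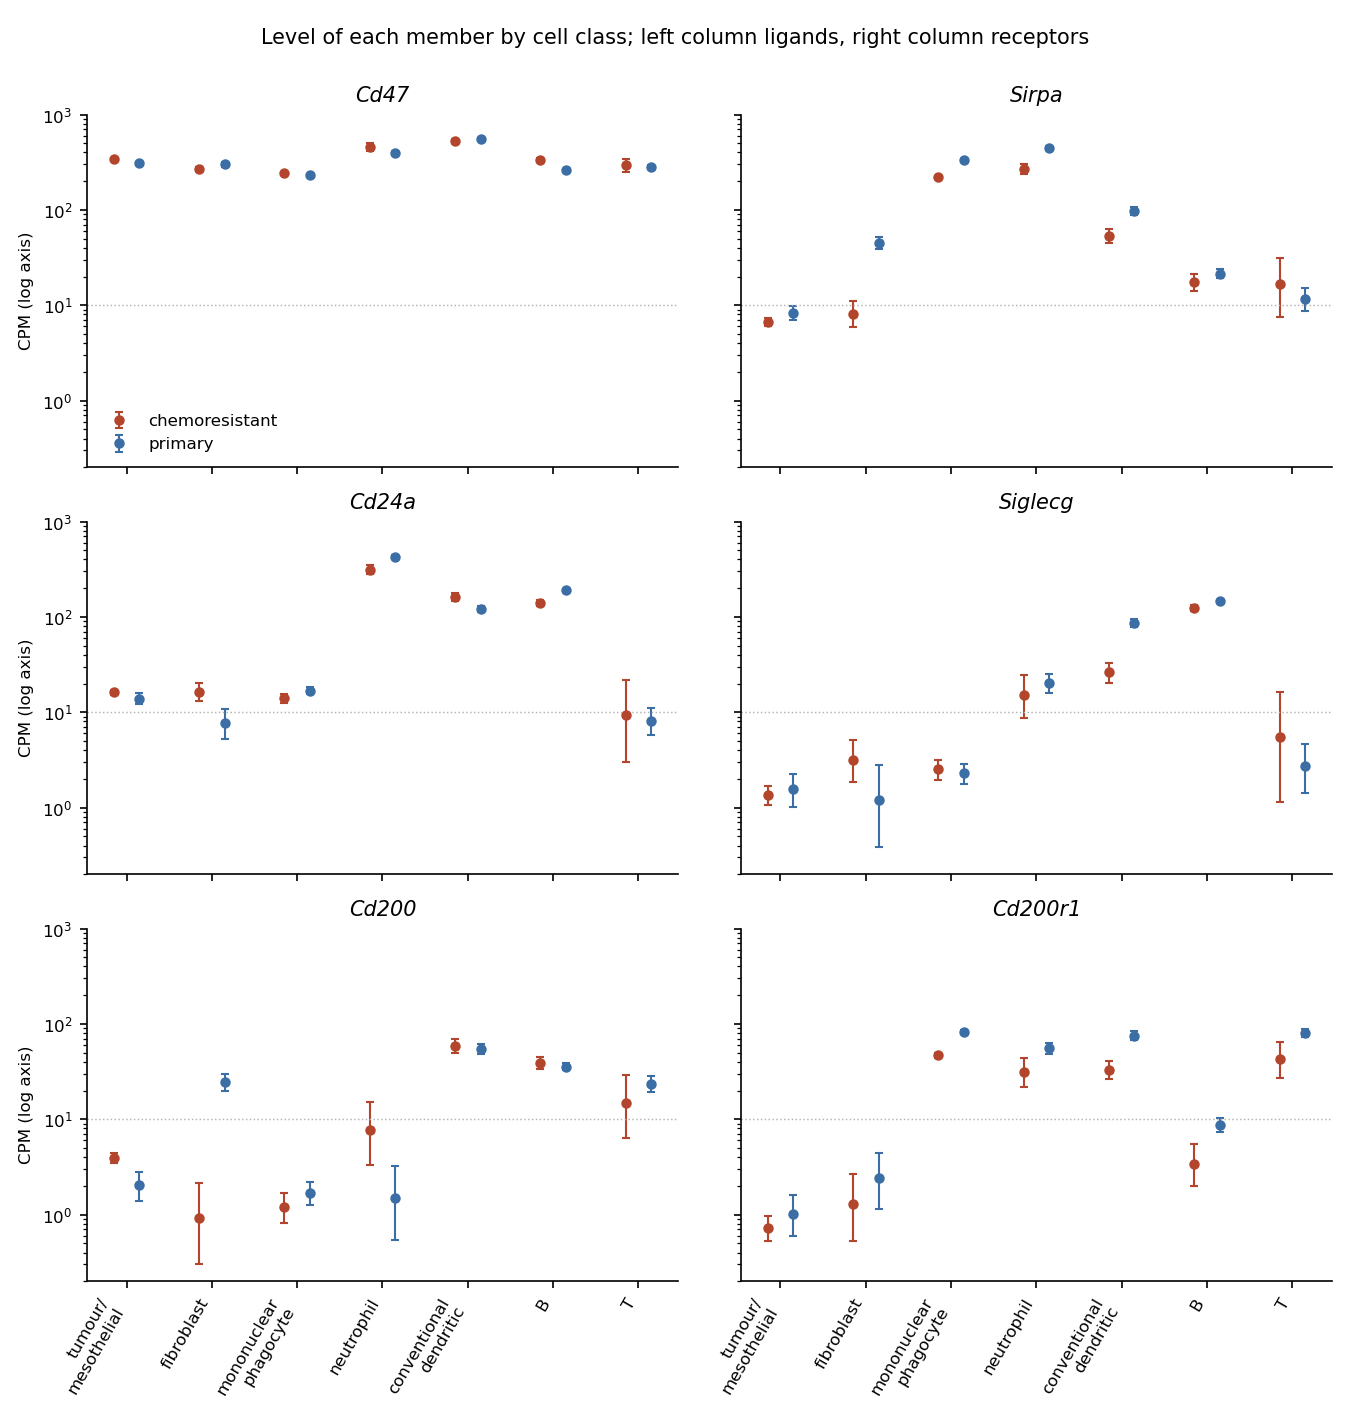
Level of each gene in CPM (log axis) by cell class, chemoresistant in red and primary in blue, with exact Poisson 95% intervals; the dotted line marks 10 CPM. Cd47 stays within 232 and 548 CPM in these classes, whereas each of the other genes spans classes above and below 10 CPM.

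Cd47 was the broadest of the 6 genes. Its level was highest in dendritic cells, at 530.6 CPM in the chemoresistant (503 to 559) and 547.7 CPM in the primary library (527 to 569). Neutrophils came next, at 456.5 and 398.7 CPM. Their intervals did not meet those of dendritic cells in either library. Krt18, a tumour marker, stood in neutrophils at 14.9% and 3.25% of its tumour level, and those shares of Cd47 would give 50.8 and 10.0 CPM. Tumour cells held 340.3 CPM in the chemoresistant (336 to 345) and 307.9 CPM in the primary library (299.5 to 316), behind neutrophils in both. B cells stood at 336.3 and 263.4 CPM, T cells at 293.8 and 281.3 CPM and fibroblasts at 270.3 and 299.5 CPM. Phagocytes were lowest of the 7, at 242.8 and 232.0 CPM. Between tumour cells and phagocytes, each class overlapped its neighbour in the order: tumour, B, T cells and fibroblasts in the chemoresistant library, and tumour cells, fibroblasts, T and B cells in the primary one. Over all classes with at least 100 cells in a library, the highest level was 2.82 times the lowest in the chemoresistant library, where red cell-like barcodes were lowest, and 2.93 times in the primary library, where plasma cell-like barcodes were.

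Between libraries, Cd47 was within 1.5-fold in all 7 classes, with log2 ratios of −0.14 to 0.34. In tumour cells the ratio was 0.14, a 1.11-fold difference (1.07 to 1.14), and 78.8% of genes in that class had a lower ratio. In the tumour class 3.06% of genes were called higher and 6.94% lower. The tumour ratio moved with the choice of cells. It was 0.01 among barcodes with fewer than 2 host mesothelial markers, at 307.1 CPM in 522 chemoresistant and 304.9 CPM in 90 primary cells, and 0.16 among the rest, at 346.9 and 308.4 CPM. Depth differed along with these markers. The median was 9414.5 UMIs in chemoresistant and 9775.5 in primary barcodes with fewer markers, and 25168 and 43408 among the rest. The tumour ratio was 0.45 in 1 seeded draw that thinned each cell to 1000 UMIs, so that deep and shallow cells counted alike. The expected share of cells with a Cd47 UMI at that depth was 27.3% in the chemoresistant and 24.3% in the primary library. How much of the 0.45 is noise of the draw was not tested. The mean over cells, which also gives each cell equal weight, had a smaller ratio, listed with the alternatives below. Cycling made less difference: cells with a UMI of Mki67, Top2a or Cdk1 held 333.0 CPM in the chemoresistant and 304.8 CPM in the primary library, and cells without one 344.1 and 311.8 CPM. The largest ratio was in B cells, at 0.34 or 1.28-fold (1.21 to 1.35). Resting B cells (0.29), B-1-like cells (0.22) and the remaining B cells (0.53) were all above 0, in a class where 2.47% of genes were called higher.

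Nearly every deep tumour cell carried the transcript. After thinning to 10000 UMIs, 1696 chemoresistant cells had a mean of 3.39 Cd47 UMIs and 307 primary cells a mean of 2.98, and 5.66% (4.61 to 6.87) and 7.82% (5.07 to 11.4) had none. The variance was 1.39 times the mean in chemoresistant and 1.32 times in primary cells, where pure counting noise gives a ratio near unity. The 10th and 90th percentiles were 1 and 6 UMIs in both libraries. The level per cell thus varied somewhat more than counting noise in both libraries. Tumour cells held 61.7% (61.2 to 62.3) of the Cd47 UMIs of all placed cells in the chemoresistant library, against 20.5% (19.96 to 20.96) in the primary library, close to their share of all UMIs at 57.5% and 18.7%.

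**Figure D2:**
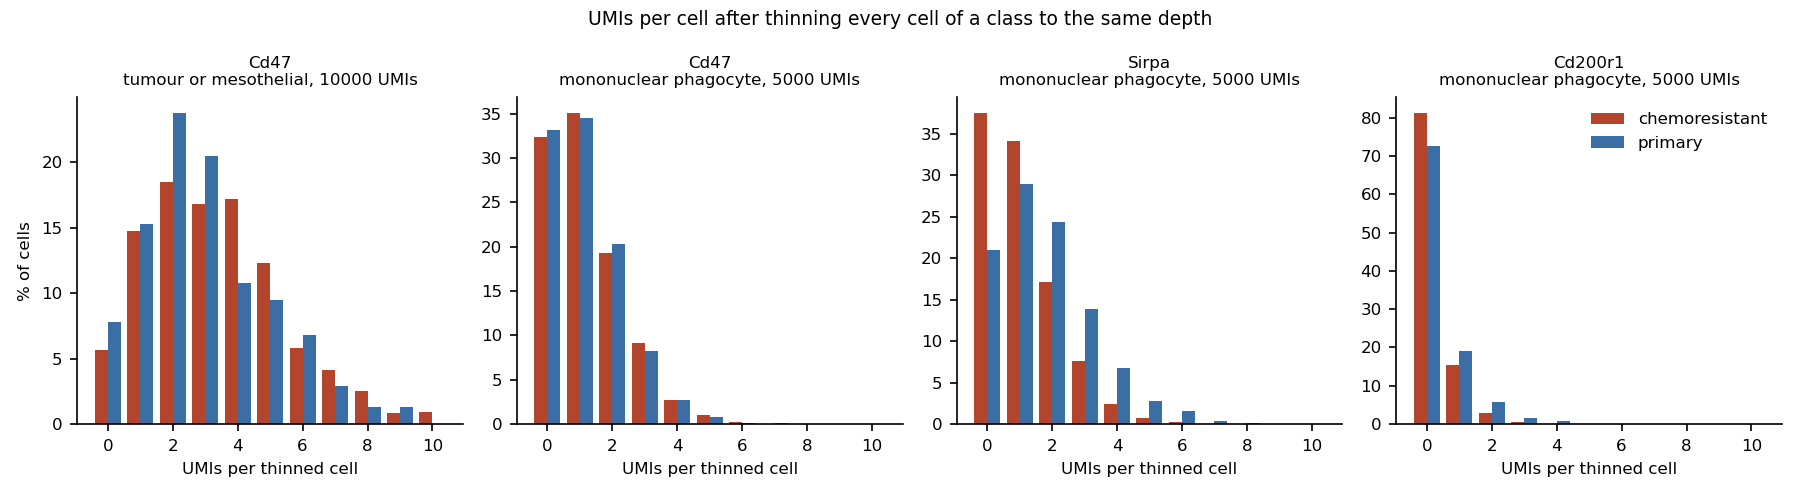
Share of cells (%) by number of UMIs after each cell was thinned to the depth in the panel title, chemoresistant in red and primary in blue. In phagocytes the Cd47 bars of the libraries are close, while the share with no Sirpa UMI is 37.5% in the chemoresistant and 21.0% in the primary library.

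Cd24a, the other ligand tied to phagocytosis of tumour cells, was low in the tumour class, in phagocytes and in T cells, and high in neutrophils, dendritic and B cells. It reached 313.2 CPM in chemoresistant (280 to 349) and 423.8 CPM in primary neutrophils (404 to 444), the highest of the classes compared. Dendritic cells had 160.5 and 120.9 CPM, and B cells 139.4 and 191.2 CPM, so that B cells stood above dendritic cells in the primary library. Tumour cells held 16.2 CPM in the chemoresistant (15.2 to 17.2) and 13.9 CPM in the primary library (12.1 to 15.8). That was close to phagocytes, at 14.0 and 16.8 CPM, whose intervals overlapped those of tumour cells in both libraries. T cells had 9.24 and 8.10 CPM. Red cell-like barcodes, 131 and 51 in number and not compared further, held 182.3 and 305.5 CPM, and Cd24a is a known antigen of red cells. In primary plasma cell-like barcodes, 107 cells, the level was 84.2 CPM.

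Free RNA could reach any droplet, so markers of the Cd24a-rich classes were read in tumour cells as well. S100a8, a neutrophil gene, stood there at 0.0663% of its neutrophil level in the chemoresistant and 0.117% in the primary library, and Cd79a, a B cell gene, at 0.323% and 0.781% of its B cell level. The same shares of Cd24a would give 0.208 and 0.496 CPM from neutrophils and 0.451 and 1.49 CPM from B cells. The measured 16.2 and 13.9 CPM were above both together, and no other source was tested. The UMIs sat in a minority of tumour cells: 489 of 2243 chemoresistant and 101 of 387 primary cells had any, and the top 1% of cells (23 and 4) held 19.2% and 24.0% of them, against 4.84% and 5.78% for Cd47. At least 1 UMI of both ligands was found in 480 chemoresistant (21.4%, 19.7 to 23.2) and 99 primary tumour cells (25.6%, 21.3 to 30.2), and 9 and 2 cells had Cd24a alone. These numbers of cells were taken without thinning and also move with depth, which was greater in the primary library. At the thinned depth where 27.3% of chemoresistant and 24.3% of primary tumour cells would hold Cd47, 1.35% and 1.08% would hold Cd24a.

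None of the 6 measured Cd24a ratios was called over whole classes. In tumour cells the log2 ratio was 0.13, and its sign turned with cycling cells left out, to −0.14. Cycling tumour cells held 20.5 CPM in the chemoresistant (18.6 to 22.6) and 11.8 CPM in the primary library (9.68 to 14.2), and cells without a cycling UMI 14.0 and 16.5 CPM. Dendritic cells had a ratio of 0.38, where 4.0% of genes were called higher. Their type 1 subset held 238.5 CPM in the chemoresistant and 175.7 CPM in the primary library, and their migratory subset 44.8 and 21.4 CPM. B cells had −0.43 and neutrophils −0.42. Within B cells, the resting subset held 139.8 CPM in the chemoresistant and 183.2 CPM in the primary library (−0.37). The B-1-like subset, with 189 and 68 cells, held 113.9 and 194.8 CPM (−0.73), and the remaining B cells, 929 and 221 in number, 145.6 and 269.4 CPM (−0.84). Resting cells made up 60.7% of B cells in the chemoresistant and 90.3% in the primary library, and with equal weights for the 3 subsets the ratio was −0.66, past 1.5-fold. The neutrophil ratio was −0.79 with mixed barcodes kept, −0.12 as a mean over cells and 0.17 after thinning to 1000 UMIs, which left out 434 chemoresistant and 72 primary neutrophils. Of the 293 chemoresistant and 1346 primary neutrophils deep enough to thin, 32.7% and 32.9% would hold a UMI. In fibroblasts the log2 ratio was 0.58, at 16.4 and 7.69 CPM, not called with 10 CPM added, and it passed in 6 of 12 alternatives. The fold without added CPM was 2.13 (1.40 to 3.29).

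Cd200 was a gene of endothelial, dendritic and B cells here. Endothelial-like cells, too few to compare, held 27.3 CPM in the 12 cells of the chemoresistant library (12.5 to 51.8) and 277.7 CPM in the 80 cells of the primary library (239 to 320.5). Dendritic cells had 59.0 CPM in the chemoresistant and 54.2 CPM in the primary library, mostly in the migratory subset, at 147.3 CPM in 174 cells and 153.9 CPM in 149 cells, while type 1 dendritic cells had 10.1 and 12.7 CPM. B cells followed with 38.6 and 35.7 CPM and T cells with 14.8 and 23.7 CPM. Tumour cells were low, at 3.93 CPM in the chemoresistant (3.44 to 4.47) and 2.02 CPM in the primary library (1.40 to 2.83), a 1.94-fold difference (1.35 to 2.87) at levels under 10 CPM. Cells with a cycling UMI held 3.36 CPM in the chemoresistant and 0.749 CPM in the primary library (67 and 7 UMIs, 4.48-fold, 2.06 to 11.6), and cells without one 4.22 and 3.62 CPM (1.16-fold, 0.772 to 1.82). Cd200 was called lower in fibroblasts, at 0.929 CPM (5 UMIs) in the chemoresistant against 24.3 CPM (101 UMIs) in the primary library, a log2 ratio of −1.65. In that class 22.2% of genes were called lower and 9.22% higher.

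**Figure D3:**
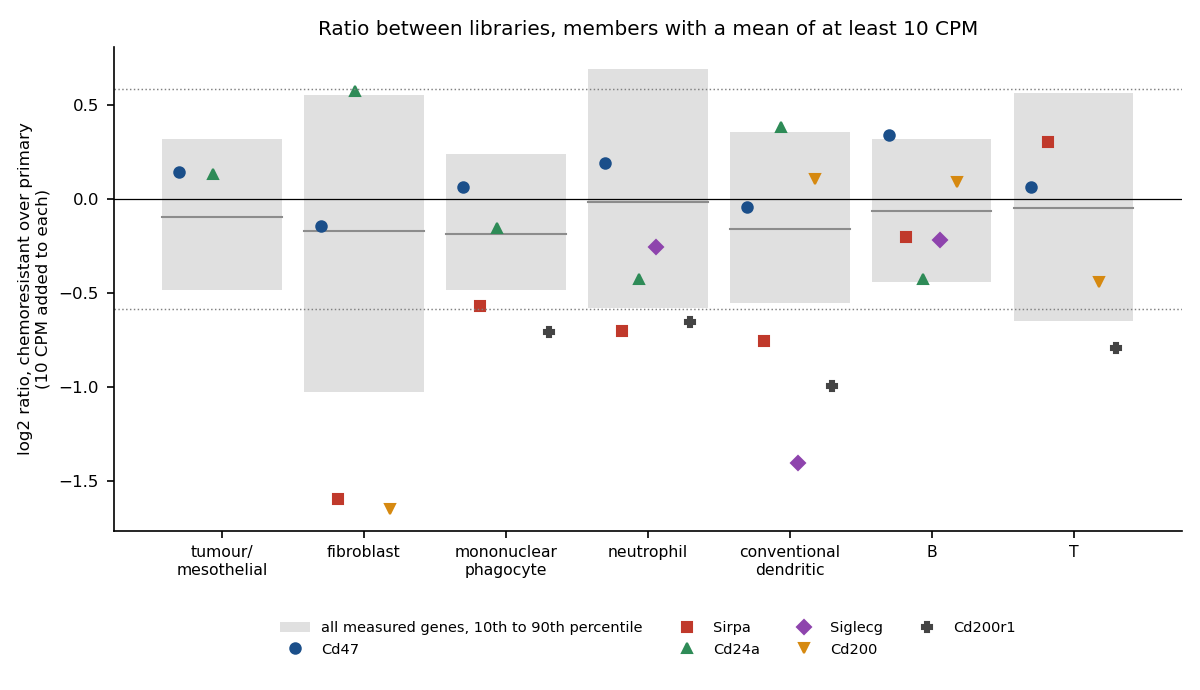
Log2 ratio of chemoresistant over primary (10 CPM added) for each gene and class with a mean of at least 10 CPM; grey boxes hold the 10th to 90th percentile of all measured genes, the grey line their median and dotted lines 1.5-fold. Ligand ratios lie mostly inside the boxes, whereas Cd200r1 lies below the box in phagocytes, neutrophils, dendritic and T cells. Sirpa also lies below the box in phagocytes, neutrophils, dendritic cells and fibroblasts, and Siglecg in dendritic cells.

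Among the receptors, Sirpa was highest in neutrophils and phagocytes. Neutrophils held 270.2 CPM in the chemoresistant (240 to 304) and 446.2 CPM in the primary library (426 to 467), and phagocytes 221.5 CPM (216 to 227) and 333.4 CPM (327 to 340). Dendritic cells followed with 53.6 CPM in the chemoresistant and 97.5 CPM in the primary library. In tumour cells the level was 6.71 and 8.28 CPM. C1qa, a macrophage gene, stood in tumour cells at 1.56% and 1.47% of its phagocyte level, and that share of Sirpa would give 3.47 and 4.89 CPM. B cells had 17.4 and 21.5 CPM and T cells 16.6 and 11.6 CPM.

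Sirpa was called lower in chemoresistant neutrophils and dendritic cells, and phagocytes came close. The log2 ratio was −0.70 in neutrophils, where 9.81% of genes were called lower, and −0.76 in dendritic cells, where 8.48% were. Migratory dendritic cells held 29.9 CPM in the chemoresistant and 91.9 CPM in the primary library (−1.35), where 14.4% of genes were called lower. Type 1 dendritic cells held 58.3 and 87.7 CPM (−0.52) and the remaining dendritic cells 182.4 and 239.3 CPM (−0.37), both within 1.5-fold. In phagocytes the log2 ratio of Sirpa was −0.57, and 4.97% of genes had a lower ratio. The fold without added CPM was 0.664 (0.643 to 0.686), just past 1.5-fold, whereas with 10 CPM added it was not called, and it passed in 4 of 14 alternatives. Relative to the median gene the phagocyte value was −0.38. With cells given equal weight, the neutrophil ratio was −0.56 and no longer called. Fibroblasts had 8.18 CPM in the chemoresistant and 44.9 CPM in the primary library, a log2 ratio of −1.60. The C1qa share in fibroblasts, 2.01% and 2.03%, would give 4.46 and 6.78 CPM there.

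Phagocytes were then split by markers into subsets, and Sirpa was below its primary level in each. Arg1 macrophages, marked by Arg1 and Spp1, held 209.1 CPM of Sirpa in 1013 chemoresistant cells and 378.7 CPM in 351 primary cells, a log2 ratio of −0.83 that was called lower. Alternatively activated macrophages, marked by Retnla and Mrc1, held 228.0 CPM in 1139 and 318.2 CPM in 1206 cells. Monocytes, marked by Ly6c2 and Plac8, held 240.4 CPM in 797 and 349.6 CPM in 588 cells. The remaining phagocytes held 218.2 CPM in 1061 and 330.6 CPM in 527 cells. In these 4 subsets the intervals of the libraries did not overlap. The share of all genes called higher and lower was 3.14% and 8.09% in Arg1 macrophages, 1.92% and 6.14% in alternatively activated macrophages, 2.11% and 4.77% in monocytes and 2.17% and 6.11% in the remainder. With equal weights for the subsets, the log2 ratio was −0.60. Resident-type macrophages, with 51 and 28 cells, held 152.3 and 300.9 CPM. At 5000 UMIs per cell, 2188 chemoresistant phagocytes had a mean of 1.07 Sirpa UMIs and 2314 primary phagocytes 1.74, and 1873 and 386 shallower cells were left out. Cd47 in the same thinned phagocytes had means of 1.19 and 1.16.

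**Figure D4:**
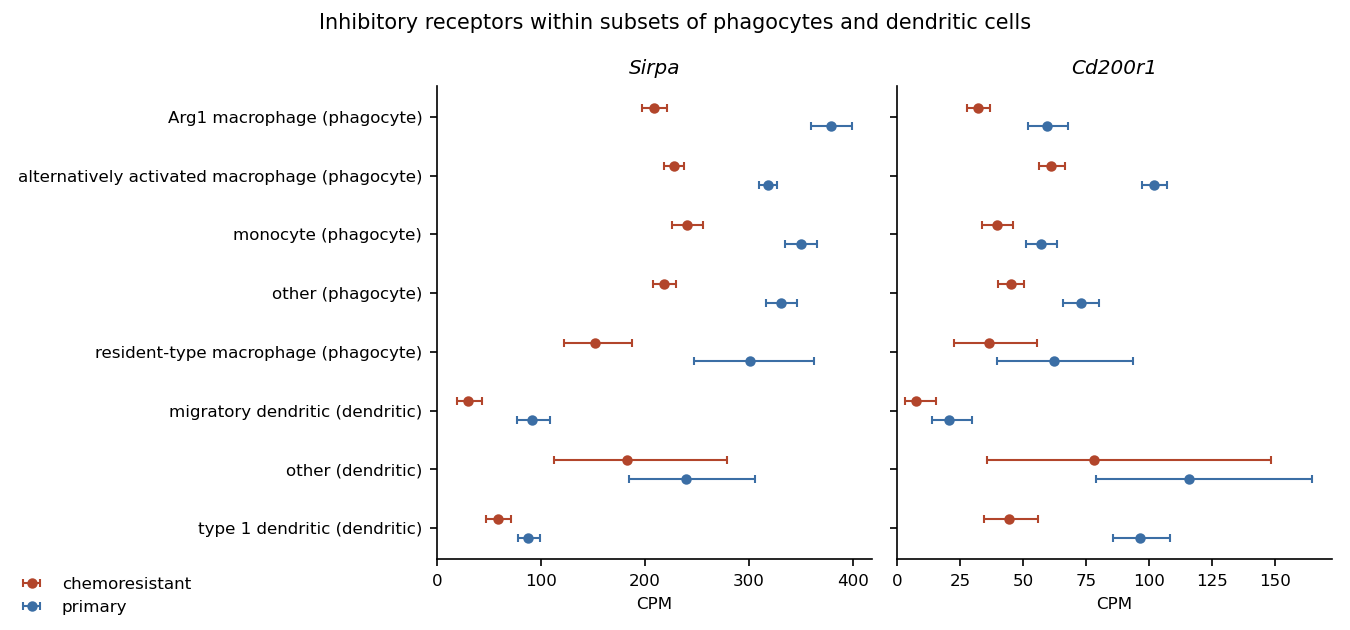
CPM of Sirpa and Cd200r1 in subsets of phagocytes and dendritic cells, chemoresistant in red above primary in blue, with exact Poisson 95% intervals. The chemoresistant value is the lower one in every subset shown, with overlapping intervals for Cd200r1 in resident-type macrophages and migratory dendritic cells and for both genes in the remaining dendritic cells.

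Siglecg was mainly a B cell gene. B cells held 124.2 CPM in the chemoresistant (115 to 134) and 146.0 CPM in the primary library (140.2 to 152), and 70.3% (67.2 to 73.3) and 78.7% (77.2 to 80.2) of its UMIs in placed cells. Dendritic cells had 26.2 CPM in the chemoresistant (20.4 to 33.2) and 86.1 CPM in the primary library (78.0 to 94.9). Neutrophils had 15.3 and 20.2 CPM. Phagocytes held 2.51 CPM in the chemoresistant (1.95 to 3.19) and 2.28 CPM in the primary library (1.79 to 2.87), where the Cd79a share would give 0.725 and 1.02 CPM. They thus stood far below B cells in both libraries. Tumour cells held 1.35 and 1.55 CPM.

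In dendritic cells Siglecg had a log2 ratio of −1.41, a fold of 0.305 (0.233 to 0.394), and 0.219% of genes in that class had a lower one. Type 1 dendritic cells, marked by Xcr1 and Clec9a, held 29.8 CPM in the chemoresistant and 82.2 CPM in the primary library. Migratory cells, marked by Ccr7 and Fscn1, held 14.9 and 69.8 CPM. Both subsets were lower in the chemoresistant library with intervals apart, where 10.1% of genes in type 1 and 14.4% in migratory cells were called lower and 4.74% and 6.11% higher. In B cells the ratio was −0.22, within 1.5-fold, in a class where 5.17% of genes were called lower. Over the 14 alternative settings tried for dendritic cells, the Siglecg ratio ranged from −1.68 to −1.23.

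Cd200r1 was shared by phagocytes, T cells, dendritic cells and neutrophils. Phagocytes held 46.7 CPM in the chemoresistant (44.2 to 49.4) and 82.6 CPM in the primary library (79.5 to 85.8). T cells held 42.5 and 81.0 CPM, dendritic cells 32.7 and 75.1 CPM and neutrophils 31.5 and 55.4 CPM. In the chemoresistant library each neighbour in this order overlapped the next, and in the primary library neutrophils stood below the other 3. Tumour cells had 0.725 and 1.01 CPM, near the 0.731 and 1.21 CPM that the C1qa share would give. Its level in the tumour class was not above that share in either library.

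All 4 measured ratios of Cd200r1 were called lower. They were −0.995 in dendritic cells, −0.79 in T cells, where 12.4% of genes were called lower and 9.35% higher, −0.71 in phagocytes, where 4.36% were called lower and 1.95% higher, and −0.66 in neutrophils. The T cell value rests on 23 UMIs in the chemoresistant and 390 UMIs in the primary library. In phagocytes the value was −0.52 relative to the median gene, −0.57 after thinning and −0.58 as a mean over cells, each within 1.5-fold. Alternatively activated macrophages had the most Cd200r1, at 61.3 CPM in the chemoresistant and 101.9 CPM in the primary library. Arg1 macrophages had 32.1 and 59.4 CPM and monocytes 39.5 and 57.1 CPM. In type 1 dendritic cells the levels were 44.4 and 96.5 CPM. Receptors for Cd47 and Cd200 were found together in 692 chemoresistant (17.0%, 15.9 to 18.2) and 1148 primary phagocytes (42.5%, 40.6 to 44.4) without thinning, a share that also moves with depth. After thinning to 5000 UMIs, 81.2% (79.5 to 82.8) of chemoresistant and 72.6% (70.7 to 74.4) of primary phagocytes had no Cd200r1 UMI.

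Lists of genes of these pathways were counted in 4 classes, tumour cells, phagocytes, neutrophils and B cells. The lists of inhibitory ligands and receptors hold the members themselves, so ratios already given above enter their counts and medians. Of 17 inhibitory receptors in the files, 15 were measured in phagocytes. There, 3 of them, Cd200r1, Cd300a and Cd300lf, were lower, where 4.36% of all genes were, none was higher, and the median log2 ratio was −0.34 against −0.19 over all genes. Cd300a, a receptor for membrane phospholipids, had 101.5 CPM in the chemoresistant and 167.5 CPM in the primary library. Cd300lf, its relative, had 68.9 and 111.6 CPM. In neutrophils 5 of 15, Sirpa, Cd200r1, Lilrb4a, Cd300lf and Cd300a, were lower, where 9.81% of all genes were, and none was higher, where 13% were. The median was −0.34 against −0.02 over all genes. The largest difference was that of Lilrb4a, an immunoglobulin-like inhibitory receptor, at 369.6 CPM in the chemoresistant and 693.2 CPM in the primary library. In B cells 2 of 10 were lower, namely Cd300lf at 24.6 and 65.2 CPM and Cd72, a B cell coreceptor, at 102.6 and 179.7 CPM, where 5.17% of all genes were lower. Their median was −0.29 against −0.06. The tumour class had 1 measured receptor, Fcgr2b, which was lower at 7.20 and 18.5 CPM, where 6.94% of all genes were. Whether these UMIs came from tumour cells or from free RNA of other classes was not tested.

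Of 6 genes related in sequence to the members, 4 were measured in phagocytes and in neutrophils. In neutrophils 1 of 4 was higher, where 13% of all genes were, and the list's median log2 ratio was 0.20 against −0.02. That gene was Sirpb1a, an activating relative of Sirpa, at 54.4 CPM in the chemoresistant and 30.3 CPM in the primary library. Sirpb1b, at 479.4 and 442.0 CPM, and Sirpb1c, at 341.9 and 278.8 CPM, were within 1.5-fold. In phagocytes the Sirpb1 genes had ratios of −0.25 to −0.40, and Cd200r4, an activating relative of Cd200r1, 0.12. Shared transcript ends were searched only for the 6 members. No 60-base word from the last 500 bases of any coding transcript of Cd47, Sirpa, Siglecg, Cd200 or Cd200r1 recurred in a transcript of another gene. Whether reads of the Sirpb1 genes or of Cd200r4 can be parted from those of their own relatives was not tested. For Cd24a 1.59% of words recurred, in the transcript of Gm6212. None of the 6 loci overlaps another annotated gene.

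Of 7 inhibitory ligands, 4 were measured in tumour cells and 1 was higher, where 3.06% of all genes were: B2m, the light chain of class I molecules, at 733.2 CPM in the chemoresistant and 463.5 CPM in the primary library. Their median was 0.14 against −0.10 over all genes, with Cd47 (0.14) and Cd24a (0.13) among the 4. Among 7 ligands measured in B cells, where 2.47% of all genes were higher and 5.17% lower, B cells had more B2m, at 1343 and 840.7 CPM, and less Cd274, which encodes PD-L1, at 78.8 and 229.5 CPM. In neutrophils 2 of 6 were lower, where 9.81% of all genes were. Cd274 stood at 103.1 CPM in the chemoresistant and 719.8 CPM in the primary library, a log2 ratio of −2.69 where the list's median was −0.18 against −0.02, and Pecam1, an adhesion molecule, at 10.5 and 21.4 CPM. Phagocytes had no ligand past 1.5-fold among 5 measured.

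Signalling genes below the receptors were mostly within 1.5-fold. Fyb, an adaptor bound to the Sirpa partner Skap2, was the 1 of 8 that was lower in phagocytes, at 351.6 CPM in the chemoresistant and 563.7 CPM in the primary library, and also in neutrophils, at 277.9 and 424.2 CPM. Of all genes, 4.36% were lower in phagocytes and 9.81% in neutrophils, and the list's medians were −0.39 against −0.19 and −0.26 against −0.02. In B cells 1 of 7 was lower, Ptpn6, the phosphatase recruited by inhibitory receptors, at 119.6 and 230.7 CPM, where 5.17% of all genes were lower, with a median of −0.25 against −0.06. In tumour cells none of 5 passed 1.5-fold, where 3.06% of all genes were higher and 6.94% lower. Of enzymes and ligands that act on Cd47 or Cd24a, 1 of 5 was higher in tumour cells, where 3.06% of all genes were: the sialyltransferase St3gal1, at 69.3 and 40.7 CPM. In phagocytes 1 of 5 was lower, where 4.36% were: Thbs1, a secreted ligand of Cd47, at 108.6 and 185.2 CPM.

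Genes that promote engulfment showed no common direction in phagocytes, where 1 of 12 was higher and none lower, against 1.95% and 4.36% of all genes. That gene was Fcgr4, an activating Fc receptor, at 340.5 CPM in the chemoresistant and 195.0 CPM in the primary library, and the list's median equalled −0.18 against −0.19. In neutrophils 3 of 10 were higher, where 13% of all genes were: Gas6, a bridge to apoptotic cells, at 92.6 and 24.6 CPM, its receptor Axl at 43.0 and 14.8 CPM, and Calr, an engulfment signal, at 253.1 and 160.2 CPM. From the list of enzymes, St6gal1 at 73.5 and 39.6 CPM and Hspa5 at 592.0 and 386.1 CPM were also higher there. Tumour cells held 147.4 and 191.9 CPM of Gas6. The Krt18 shares in neutrophils given above, 14.9% in the chemoresistant and 3.25% in the primary library, moved with these values, and their part was not tested. Itgb2 was the 1 of 10 lower in neutrophils, at 148.0 and 227.1 CPM, where 9.81% of all genes were lower. In B cells 1 of 9 was lower, where 5.17% were: Slamf7, at 23.6 and 43.1 CPM.

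Patterns were compared over the 16 class and library sums with at least 100 cells, among 6950 genes, as a description of points that share libraries and depth. Sirpa was most like Itgam (Pearson r = 0.979), Slc15a3 (0.968) and Pilra (0.967). For Siglecg they were Bcl11a (0.967), B3gnt5 (0.934) and Nrm (0.934), and for Cd200r1 Atp8b4 (0.938), Iqgap2 (0.935) and Lcp2 (0.931). Cd200 was most like Phlpp1 (0.923), Tmem123 (0.904) and Relb (0.878). Cd47 was followed by Tmem19 (0.905), Got2 (0.874) and Stx17 (0.867), and Cd24a by Ankrd33b (0.869), Scimp (0.813) and Gm10552 (0.7999). Among the members themselves, Cd24a with Siglecg had the highest value (0.677), Siglecg with Cd200 had 0.673 and Sirpa with Cd200r1 had 0.645. Cd47 with Sirpa had 0.305.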

How the data were processed

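The analysis started from deposited UMI counts, which the authors produced using Cell Ranger 8.0.1 (version from the file headers; mm10 from the submitters' processing notes). Which gene annotation served for counting was not stated. Barcodes had at least 500 UMIs as deposited, and were kept with at least 250 genes and at most 20% mitochondrial UMIs. The chemoresistant library held 16390 barcodes and 158118781 UMIs, and the primary library 14390 and 141334623.

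A marker counted in a barcode with a UMI and a share of its UMIs above the mean share of both libraries, a rule set after seeing marker tables. Subsets needed at least 2 markers and no tie. No doublet caller was run. Counts were summed per class and expressed as CPM with exact Poisson intervals. Shares carry exact Clopper-Pearson intervals where given, and folds exact conditional binomial ones. No test was run, since each group has 1 library. The rule on 1.5-fold calls was tested on simulated data.

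The members and gene lists were chosen with earlier results of these data known. The text names the 6 members, listed genes past 1.5-fold (up to 4 per list and class, largest first) and the 3 genes most like each member. Shares after thinning are expectations, and thinned counts one seeded draw. Tools were Python 3.11.15, numpy 2.4.6, pandas 2.3.3, scipy 1.17.1 and matplotlib 3.10.9.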

Additional observations from a re-analysis of the deposited data

Results flagged for a closer look

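Cd47 and Cd24a differed between the libraries in opposite directions in fibroblasts and B cells, with counting intervals of the fold on either side of 1. The Cd24a log2 ratio of chemoresistant over primary was 0.58 in fibroblasts and −0.43 in B cells. The Cd47 log2 ratio was 0.34 in B cells and −0.14 in fibroblasts. The difference between the classes was not tested, since each group has 1 library, and the fibroblast classes of the libraries had different leading genes. Centred on the median gene of each class, Cd47 in fibroblasts became 0.03.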

How the results depend on the processing

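No paired analysis was possible because each group has 1 library, and for the same reason no replicate could be left out. Of 401 member ratios recomputed under the alternatives, 369 stayed within the counting interval of the reported ratio, 32 moved beyond it and no called ratio changed sign. Some of the 369 could not move. Dropping the filter on low CPM changes no ratio, and leaving out host mesothelial barcodes or counting fibroblasts as tumour changes no ratio of the immune classes. The numbers of alternatives given above include these settings. The Cd47 ratio in tumour cells was 0.24 when centred on the median gene, 0.40 without the deepest 10% of barcodes, 0.45 with cells thinned to 1000 UMIs, 0.19 as a mean over cells and 0.010 without barcodes carrying host mesothelial markers. The Cd24a ratio there was −0.14 with cycling cells left out. The Sirpa ratio in phagocytes was −0.38 when centred on the median gene, −0.63 with mixed barcodes kept and −0.48 as a mean over cells. The number of pairs called higher was 1 instead of 0 when centred, with 1 CPM added, without the filter on low CPM, with at least 4 markers, without the deepest 10%, as a mean over cells, with cycling cells left out and with barcodes under 1000 UMIs left out. That pair was Cd24a in fibroblasts, except as a mean over cells (Cd24a in dendritic cells, 0.62) and without the filter (Cd200 in neutrophils, 0.62 on 8 and 6 UMIs). The number called lower ranged from 7 to 11. Of 312 list counts, 58 moved by over 1.5 times or changed to or from 0. Counting fibroblasts as tumour, leaving out barcodes under 1000 UMIs and equal weights for subsets were chosen after seeing the data. The cause of these shifts was not tested. Low counts limit several ratios: in chemoresistant neutrophils Siglecg, Cd200 and Cd200r1 rested on 16, 8 and 33 UMIs, and in chemoresistant T cells Sirpa rested on 9.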

Other observations

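Summed over all barcodes that passed the quality limits, mixed ones included, Cd47 stood at 326.9 CPM in the chemoresistant and 285.0 CPM in the primary library. Sirpa stood at 56.4 and 131.7 CPM, Cd24a at 29.3 and 69.5 CPM, Siglecg at 8.42 and 29.7 CPM, Cd200 at 5.98 and 14.4 CPM and Cd200r1 at 12.8 and 40.5 CPM. These sums mix levels per class with the share of each class, since tumour cells gave 57.5% of placed UMIs in the chemoresistant and 18.7% in the primary library. In bulk RNA of such tumours fewer cells of a type and less RNA per cell could not be told apart.

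Within the rare resident-type macrophages, Cd24a was 74.4 CPM in 51 chemoresistant and 195.2 CPM in 28 primary cells, above the 14.0 and 16.8 CPM of phagocytes as a whole. Acinar-like barcodes of the primary library (65 cells) held 49.8 CPM of Cd24a, and enterocyte-like barcodes (98 cells) 9.35 CPM. Plasma cell-like barcodes held 5.31 CPM in the chemoresistant library (78 cells) and 84.2 CPM in the primary library (107 cells). This class was called less clearly in the chemoresistant library. Its barcodes had a median of 4 own markers there and 10 in the primary library. Of them, 19 chemoresistant and 4 primary barcodes were at the minimum number of markers, and in 31 and 21 another class was exactly at the limit. Whether the class holds the same cells in both libraries was not tested.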
